A study of Mus musculus with 188 samples.

Results

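Chromosome 13 of mouse embryonic stem cells (mESCs) was described as all of its 50 kb bins with a binarized replication state in single S-phase cells. There were 2241 such bins of 2409 in the tables, from chr13:3000001-3050000 to chr13:119800001-119850000 in mm10, out of 49588 bins with a state in the whole series. The chromosome was chosen by its homolog states, because among the autosomes of the diploid cells, its bins were more often replicated on the Castaneus homolog alone than on the 129 homolog alone. Measures of that asynchrony are therefore given as a description. Of the 2241 bins, 2158 also had a smoothed copy number score in 50% or more of each line's cells and were used for scheduled times and percentages, and the other 83 entered only the list of asynchronous segments.

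Single nuclei of cultured mESCs were sorted from S phase by DNA content, and whole genome amplification was followed by low coverage sequencing. H129-2 is a haploid line, and values of 75 cells were used. F121-9 is a diploid hybrid line with a 129 and a Castaneus chromosome set, and values of 63 cells were used. All cells were grown in N2B27+2i+LIF medium, and no drug or gene alteration is named in the labels. The labels name no separate cultures, so each line is a single sample, the SD is the spread over cells and no p-value is given. Haploid cells had replicated 24.6% to 88.6% of their autosomal bins and diploid cells 18.2% to 79.1%, and the number of reads behind each value is unknown.

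Mammalian chromosomes replicate as long domains that complete in a fixed order, with gene-rich, GC-rich and transcribed domains generally early and gene-poor domains at the nuclear periphery late. A domain that has replicated has a higher copy number than one that has not, so the read density of an S-phase cell shows which domains are done. In a hybrid cell, sequence variants assign reads to the homologs, and a domain replicated on a single homolog is called asynchronous.

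The scheduled time of a bin is its position when all autosomal bins are ordered by mean smoothed score over the cells, placed on an S phase of 10 h, so that 0 h is earliest and 10 h is latest. Promoters of 6 chromosome 13 genes are shown because each gene marks a place that the results below turn on. They are the 250 bases before the annotated start, from RefSeq on GRCm38.p6, with every CG dinucleotide in capitals. Tert (chr13:73626661-73626910, + strand), the catalytic subunit of telomerase, lies in the earliest domain. Isl1 (chr13:116309689-116309938, - strand), a homeobox factor of motor neurons and heart, and Prl3d1 (chr13:27093939-27094188, + strand), a placental lactogen, lie in the latest domains. Ice1 (chr13:70637635-70637884, - strand), a scaffold of the little elongation complex for small nuclear RNA genes, lies next to the bins where Castaneus was most often replicated alone. At Ice1 itself Castaneus was replicated alone in 3 cells, among them C12 and F11, which are compared below. Klhl3 (chr13:58113648-58113897, - strand), an adaptor of a cullin ubiquitin ligase, overlaps bins where 129 was replicated alone in 3 cells. Its promoter lies just past these bins, where cells F11 and H8 had 129 alone replicated. Trpc7 (chr13:56895790-56896039, - strand), a cation channel, lies in the region with a difference between the lines.
Tert: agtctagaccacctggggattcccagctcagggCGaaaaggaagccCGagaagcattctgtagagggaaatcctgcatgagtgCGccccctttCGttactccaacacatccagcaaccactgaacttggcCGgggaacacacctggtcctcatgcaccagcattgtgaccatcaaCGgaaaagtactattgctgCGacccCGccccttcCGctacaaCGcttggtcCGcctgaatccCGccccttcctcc
Isl1: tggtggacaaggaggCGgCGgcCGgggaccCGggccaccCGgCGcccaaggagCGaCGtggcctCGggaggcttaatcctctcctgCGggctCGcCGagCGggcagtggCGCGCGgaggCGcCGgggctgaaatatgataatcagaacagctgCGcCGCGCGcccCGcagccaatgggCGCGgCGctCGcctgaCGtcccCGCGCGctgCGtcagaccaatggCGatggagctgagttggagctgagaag
Prl3d1: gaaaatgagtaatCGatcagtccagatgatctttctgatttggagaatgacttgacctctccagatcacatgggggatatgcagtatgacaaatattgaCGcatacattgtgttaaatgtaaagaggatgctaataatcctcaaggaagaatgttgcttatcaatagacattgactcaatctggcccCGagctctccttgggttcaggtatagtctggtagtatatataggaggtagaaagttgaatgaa
Ice1: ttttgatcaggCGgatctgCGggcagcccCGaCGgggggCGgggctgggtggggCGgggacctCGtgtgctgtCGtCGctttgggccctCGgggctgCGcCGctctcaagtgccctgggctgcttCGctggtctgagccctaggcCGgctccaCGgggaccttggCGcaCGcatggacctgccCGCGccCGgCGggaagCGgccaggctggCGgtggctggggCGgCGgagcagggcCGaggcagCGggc
Klhl3: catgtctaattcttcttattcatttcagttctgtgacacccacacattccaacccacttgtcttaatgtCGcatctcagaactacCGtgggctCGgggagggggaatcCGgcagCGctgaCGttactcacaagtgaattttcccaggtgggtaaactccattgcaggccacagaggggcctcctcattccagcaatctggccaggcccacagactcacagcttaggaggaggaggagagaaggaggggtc
Trpc7: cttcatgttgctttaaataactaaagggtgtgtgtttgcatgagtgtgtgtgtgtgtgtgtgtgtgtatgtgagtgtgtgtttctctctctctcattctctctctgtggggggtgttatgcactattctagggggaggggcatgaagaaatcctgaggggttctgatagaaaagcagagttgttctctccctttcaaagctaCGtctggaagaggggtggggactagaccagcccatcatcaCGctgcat

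The promoter of Tert held 12 CG dinucleotides, that of Ice1 27, that of Klhl3 6, that of Trpc7 2, that of Prl3d1 3 and that of Isl1 33. Of the 745 protein-coding genes of chromosome 13 with a scheduled time, 656 had a promoter in the RefSeq set. The median was 13 CG for 492 early genes, scheduled at 5 h or before, and 5.5 for 164 late genes. At least 10 CG were found in 59.1% of early and 39.02% of late promoters of chromosome 13, beside 51.8% of 16457 protein-coding promoters on all autosomes. Single genes did not keep to this order, since late Isl1 had the highest and early-region Trpc7 the lowest count of those shown.

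Chromosome 13 was divided into 30 early and 27 late runs of bins, with early bins making up 50.9% of the 2158. Runs were split at 5 h and at gaps of about 500 kb or more without used bins, so neighbouring runs can be of the same class. Of these, 19 early domains of at least 1 Mb covered 51.5 Mb with 9.47 protein-coding genes per Mb, and 15 late domains covered 49.2 Mb with 3.21 genes per Mb. GC content fell from 45.6% in bins scheduled at 0 to 2 h to 37.6% in bins at 8 to 10 h. The masked repeat content of the same bins rose from 25.2% to 41.5%. Genes per Mb went from 12.4 to 2.18 on chromosome 13 and from 17.4 to 1.82 on the other autosomes, so its earliest bins held fewer genes.

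**Figure D1:**
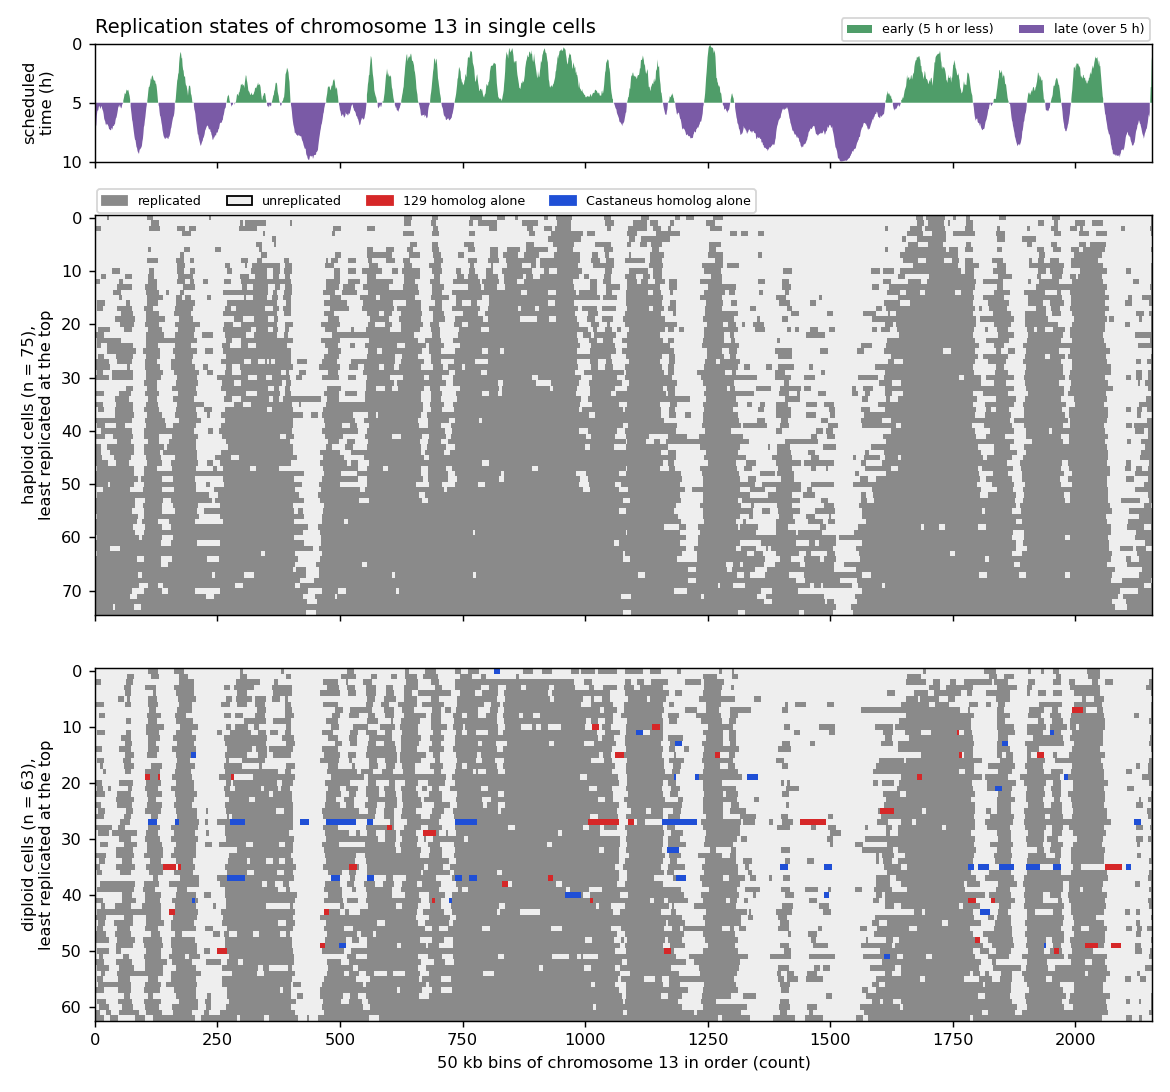
Scheduled time of each 50 kb bin (h, top) and binarized states of 75 haploid and 63 diploid cells (rows, least replicated at the top) along chromosome 13 in bin order. Grey bins are replicated on every copy, light bins on none, red bins on the 129 homolog alone and blue bins on the Castaneus homolog alone, and the longest blue stretches lie in a few rows.

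The earliest domain was chr13:73000001-74950000, at a mean of 2.19 h, and it held 29 genes. Among them were Tert, Slc6a3 (the dopamine transporter), Irx4 (a homeobox factor of the heart ventricle), Slc12a7 (a potassium-chloride cotransporter) and Cast (the calpain inhibitor calpastatin). In mid-S cells, with 40% to 60% of autosomal bins replicated, 92.3% ± 10.4 of its bins were replicated in the 25 haploid cells and 92.7% ± 12.7 in the 45 diploid ones (SD over cells). It was complete in 32 of these 70 cells, mixed in 38 and unreplicated in none. Tert itself was the earliest gene of the chromosome at 0.0859 h, and mid-S cells had its bin replicated in 96% of haploid and 100% of diploid cases.

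The next earliest domain, chr13:11650001-12800000 (2.40 h), held Ryr2 (the cardiac calcium release channel), Mtr (methionine synthase), Actn2 (sarcomeric alpha-actinin), Heatr1, Lgals8, Edaradd, Ero1b and Prl2c3. The domain at chr13:37300001-39100000 (2.43 h) held Rreb1, Bmp6 (a bone morphogenetic protein) and Dsp (desmoplakin of desmosomes) among 13 genes. The domain at chr13:111300001-114650000 (2.45 h) held Arl15, Ndufs4 (a subunit of respiratory complex I) and Ankrd55 among 24 genes. The largest early domain was chr13:50900001-60250000, 9.35 Mb long at 2.50 h, with 100 genes that include Pitx1, Msx2, Neurog1, Ntrk2 (the BDNF receptor) and Spock1. This large domain was replicated over 79.1% ± 11.6 of its bins in haploid and 91.9% ± 9.27 in diploid mid-S cells, the widest gap between the lines among the 5 earliest domains. Only a stretch without used bins separates it from the early domain chr13:42900001-50400000, which is 7.5 Mb long.

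The latest domain was chr13:25150001-29000000, at 8.05 h, with 27 genes, most of them the placental prolactin family. In mid-S cells 11.9% ± 18.7 of its bins were replicated in haploid and 9.09% ± 6.53 in diploid cells, and no cell had completed it. The next latest was chr13:114650001-119450000 (7.91 h), with 12 genes that include Isl1, Fgf10 and the integrins Itga1 and Itga2. The domain at chr13:76200001-91950000 was the longest under this division, which also cuts at gaps. It was 15.75 Mb long at 7.64 h with 31 genes, among them Mef2c (a muscle and neuronal transcription factor), Nr2f1, Adgrv1, Vcan (the matrix proteoglycan versican) and Xrcc4. It was mixed in 67 of 70 mid-S cells, unreplicated in 3 and complete in none. Adarb2 was alone in chr13:6900001-8650000 (7.64 h), and Gli3 (a hedgehog pathway factor), Sugct, Hecw1, Cdk13 and Inhba were among the 9 genes of chr13:14350001-17750000 (7.20 h).

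Times of gene families are given as a description, and neighbouring genes can share bins. Over all 745 genes the median was 3.51 h and 554 were early, so an even split of early and late members lies on the late side of the chromosome's genes. The 22 prolactin family genes with values had a median of 9.55 h, and 21 were late. Prl, pituitary prolactin itself, was at 9.88 h and mid-S cells had replicated it in 4% of haploid and 0% of diploid cases, whereas Prl2c3, which lies apart near Ryr2, was at 2.79 h. The 31 zinc finger (Zfp) genes had a median of 2.15 h with 29 early, from Zfp346 at 0.294 h to Zfp808 at 5.98 h. The 48 genes of the histone cluster lay close to mid-S with a median of 4.16 h, 43 of them early, so their median was later than that of all genes. The histone genes from H1f4 at 3.27 h to H4c9 at 5.30 h spanned little more than 2 h.

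The 22 vomeronasal receptor genes, which serve pheromone sensing, had a median of 5.23 h with 9 early. Under a schedule built from binarized states that median was 4.79 h, on the early side. The 11 Serpinb protease inhibitor genes ran from Serpinb6a at 2.83 h to Serpinb1a at 6.41 h, with 5 early. Genes of DNA replication and repair were early in 15 of 17 cases, beside 554 of 745 over all genes, and had a median of 2.81 h, with Cks2 (a cyclin-dependent kinase subunit) at 0.696 h and Gmnn (the licensing inhibitor geminin) at 2.11 h. The exceptions were Xrcc4, a factor of DNA end joining, at 6.82 h and Ccnh, the cyclin of the CDK-activating kinase, at 7.56 h. Developmental transcription factors were divided equally, 11 early and 11 late, with a median of 4.32 h, from Barx1 at 0.823 h and Pitx1 at 0.891 h to Mef2c at 8.45 h and Isl1 at 9.54 h. Neuronal genes were divided 9 to 9 at a median of 4.71 h, with Slc6a3 at 0.189 h and Htr1a (a serotonin receptor) at 7.38 h among them, and matrix genes 7 to 6 at a median of 4.43 h, with the small proteoglycans Aspn, Omd and Ogn between 2.42 and 2.86 h and Edil3 at 8.46 h. No protein-coding gene of the T cell receptor gamma list had values.

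The question of how the homologs of the same cell differed was taken first as counts per cell. On chromosome 13 the homologs had the same state in every bin in 40 of the 63 diploid cells. Homologs share a state by default where parsed reads pass no threshold, so these cells need not have replicated both homologs together. On the other autosomes 20 of the 63 cells had no 129-only bin and 27 had no Castaneus-only bin. Some, such as C1 and G11, had no asynchronous bin on any autosome. Of the other 23 cells, 12 had more bins replicated on 129 alone and 11 had more on Castaneus alone. The 129-only share ranged from 0% through a median of 0% to 5.93%, and the Castaneus-only share from 0% through a median of 0% to 12.975%. The mean 129-only share was 0.448% ± 1.04 and the mean Castaneus-only share was 0.6002% ± 1.97 (SD, n = 63). The mean Castaneus-only share was highest of the 19 autosomes, next to 0.595% on chromosome 15, while the 129-only share ranked 14th of 19.

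The mean difference, 129 minus Castaneus, was -0.152 ± 1.35 percentage points. The other 18 autosomes lay between 0.00478 on chromosome 3 and 0.408 on chromosome 9, so chromosome 13 was the only one below 0. These values chose the chromosome. The direction rested on few cells. In cell F11, 5.93% of bins were 129-only and 12.975% Castaneus-only. In cell H6 the shares were 3.80% and 6.997%, and in cell C12 they were 0.463% and 5.56%. Cell F11 stood highest for either homolog, and no other cell passed 2.04% for Castaneus. Without F11 the mean difference was -0.0411, without C12 it was -0.0725 and without H6 it was -0.103, in each case still lowest of the 19 autosomes. Without F11 and C12 together it was 0.0418 ± 0.796 (SD, n = 61), which ranked 16th, and chromosome 6 was then below 0 at -0.00827. Without all of F11, C12 and H6 it was 0.0958 ± 0.681, and the Castaneus-only share of chromosome 13 fell from rank 1 to rank 14 at 0.205%. These omissions were chosen after the values were seen.

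**Figure D2:**
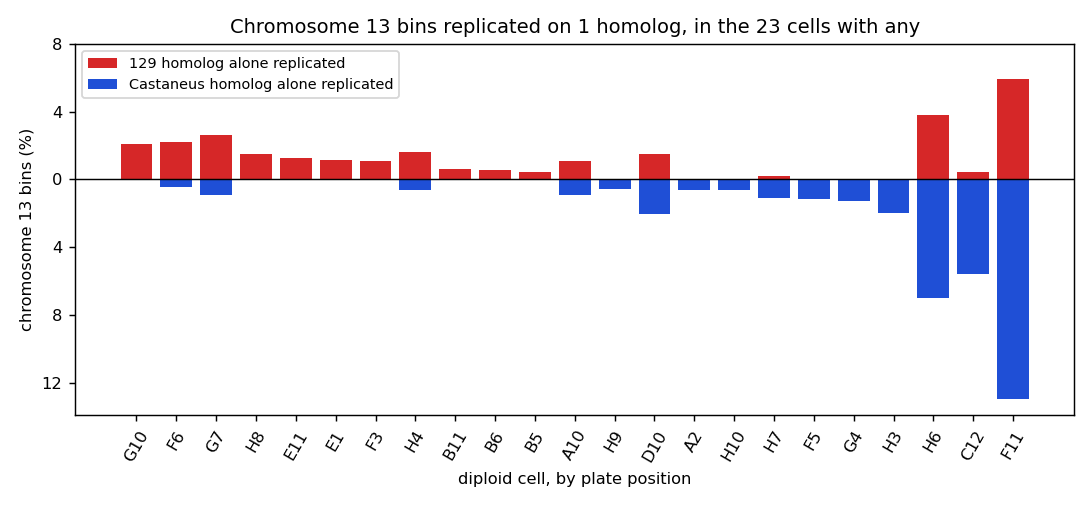
Chromosome 13 bins replicated on the 129 homolog alone (red, upward) and on the Castaneus homolog alone (blue, downward), in % of 2158 bins, in the 23 diploid cells with any, ordered by the difference. Bars of 11 cells reach further down than up, and F11, C12 and H6 hold the longest blue bars.

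Cells F11 and C12 were not unlike each other. Their smoothed scores correlated at r = 0.924 over autosomal bins, the third highest of 9453 pairs of cells, after C1 with G3 at 0.934 and C5 with F7 at 0.924, and the next pair stood at 0.894. On chromosome 13, 113 bins were Castaneus-only in both, which is 94.2% of the 120 in C12 and 40.4% of the 280 in F11. C12 had only 16 Castaneus-only bins on the other autosomes, of which 14 were shared with F11, so 88.2% of its Castaneus-only bins lay on chromosome 13. In F11 chromosome 13 held 15.5% of them. Whether such pairs are separate nuclei was not tested. The paper reports karyotype aberrations or aneuploidy in part of the diploid hybrid cells. It corrected the read density of aneuploid chromosomes and states no such correction for the reads assigned to each homolog. Whether C12, F11 or another cell had unequal copies of the chromosome 13 homologs apart from replication was not tested. Leaving out G3, F7 and C12, a cell of each of the 3 closest pairs, gave a mean difference of -0.0749. That choice kept F11, and leaving out F11 alone gave -0.0411. By plate position, all 7 cells of row H had asynchronous bins on chromosome 13 compared with 1 of 11 in row C, and the part of the plate in the result was not tested.

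Over all 2241 bins, asynchrony came in 38 segments of 129-only bins in 17 cells, 31.8 Mb in sum, and 46 segments of Castaneus-only bins in 15 cells, 41.5 Mb in sum. The median segment was 0.65 Mb for 129 and 0.75 Mb for Castaneus. F11, H6 and C12 held 561 of 830 Castaneus-only bins summed over cells, or 67.6%, and 225 of 636 129-only ones, or 35.4%. The median segment lay 1.20 h past its scheduled time for 129 and 0.841 h past it for Castaneus. Of the segments, 21 of 38 and 32 of 46 fell within 2 h of schedule. The smoothed score, which sums the homologs, can be set between the mean of unreplicated bins (0) and replicated bins (1) of chromosome 13 in the same cell. The median level of 129-only segments was 0.630 and that of Castaneus-only segments was 0.342, with 23 of 38 and 40 of 46 between 0 and 1. A segment with 1 replicated homolog would lie midway, and 129-only segments ranged from -0.656 to 1.39.

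The longest segment was Castaneus-only in F11, chr13:68600001-72200000 (3.6 Mb at 6.30 h), with 12 genes that include Adcy2 (an adenylyl cyclase), Adamts16 (a metalloprotease), Ice1 and Irx1. F11 was also Castaneus-only over chr13:29000001-32050000, with Cdkal1 (a tRNA modifying enzyme), E2f3 (an S-phase transcription factor), Foxc1, Foxf2 and Foxq1, and over chr13:42900001-45250000, with Phactr1 and Jarid2 (a Polycomb cofactor). Its longest 129-only segment was chr13:57550001-60800000, with Spock1, Klhl3 and Ntrk2. In C12 the longest Castaneus-only segment was chr13:17800001-19550000, with Amph and Cdk13. In H6 it was chr13:103800001-105400000, with Cenpk and Erbin, and the longest 129-only segment was chr13:114750001-116500000, with Itga1, Itga2 and Isl1. Cell H3 was Castaneus-only across chr13:55200001-56850000, 37 genes with Nsd1 (a histone methyltransferase) and Macroh2a1. Cell D10 was Castaneus-only across chr13:77550001-78700000, which holds Nr2f1.

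Among cells with most 129-only bins, G7 had chr13:112700001-114000000, with Gzma and Gzmk (granzymes of cytotoxic lymphocytes), F6 had chr13:60350001-61450000, with Dapk1, and G10 had chr13:16700001-17800000, with Sugct and Cdk13. In G7 the 129 homolog alone was also called replicated at Isl1, scheduled at 9.54 h. That segment had the lowest level of all, -0.656, so its score lay below the mean of unreplicated bins of the cell. Levels were also below 0 for the named segments of H6 at Isl1 (-0.626), D10 at Nr2f1 (-0.334) and F6 at Dapk1 (-0.280). The longest segment of F11 lay at 0.068, and the others named so far lay between 0 and 1.

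Recurrence of the same bins was limited. No cell was asynchronous at 1183 bins, a single cell at 699, 2 cells at 318, 3 cells at 33 and 4 cells at 8. Counted over the 2158 bins, 129 alone was replicated in at least 1 cell at 536 bins (24.8%), beside 27.5% of all autosomal bins, and Castaneus alone at 586 bins (27.2%), beside 18.3%. Cell F11 by itself had 128 of the 129-only and 280 of the Castaneus-only bins. Bins asynchronous in at least 4 cells were 0.371% on chromosome 13 and 0.432% over all autosomes. All 8 of them lay within chr13:69800001-70650000, where C12, D10, F5, F11 and G4 were Castaneus-only and no cell was 129-only. That stretch, at a mean of 5.65 h, holds Med10 (a Mediator subunit, 4.55 h), Gm47655 (5.07 h) and Ice1 (6.504 h), and it crosses from early to late. Ice1, whose promoter is shown above, was Castaneus-only in 3 cells, Med10 in 3 and Gm47655 in 4. The 129 counterpart was chr13:58000001-58100000 with Klhl3, where F11, H4 and H8 were 129-only. Further bins with 3 asynchronous cells included those at Agtr1a, an angiotensin receptor (chr13:30250001-30350000, 3 Castaneus), at Tent4a (chr13:69100001-69550000, 2 Castaneus and 1 129), and in chr13:85450001-85650000 and chr13:101800001-101850000, which hold no protein-coding gene. The closely correlated cells C12 and F11 both count at Ice1, at Agtr1a and in chr13:70050001-70400000, where 4 cells were reached. Whether they are separate nuclei was not tested, so these counts may be too high.

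Chromosome 13 was then compared with the other autosomes of the same cell, to see how far it ran ahead or behind. It was ahead by 2.97 ± 6.23 percentage points in haploid cells (59 of 75 ahead, from -17.9 through a median of 4.50 to 12.53) and by 2.63 ± 3.04 in diploid cells (51 of 63 ahead, from -5.12 through a median of 2.77 to 9.39). Means of the other autosomes ran from -13.04 on chromosome 3 to 16.3 on chromosome 11 in haploid cells, and chromosome 13 ranked 8th there and 5th in diploid cells. Its spread over haploid cells was the largest of the 19 autosomes. The sign turned with the stage of S phase. Haploid cells under 40% replicated had a difference of -8.32 ± 5.09 (SD, n = 11, 1 ahead), those of mid-S had 2.26 ± 3.66 (SD, n = 25) and those over 60% had 6.61 ± 3.09 (SD, n = 39, 37 ahead). The diploid line had -0.993 ± 1.98 in 4 early cells, 2.37 ± 2.99 in 45 mid-S cells and 4.51 ± 2.22 in 14 later cells, all of them ahead. With bins called replicated at a smoothed score above 0 in place of the deposited states, the mean lead was 1.35 ± 5.72 in haploid and 0.479 ± 2.87 in diploid cells. Of the 11 haploid cells under 40%, 9 came from plate row A, and stage and row cannot be told apart for them, while the cells in rows D and G were at -5.67 and -10.3.

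**Figure D3:**
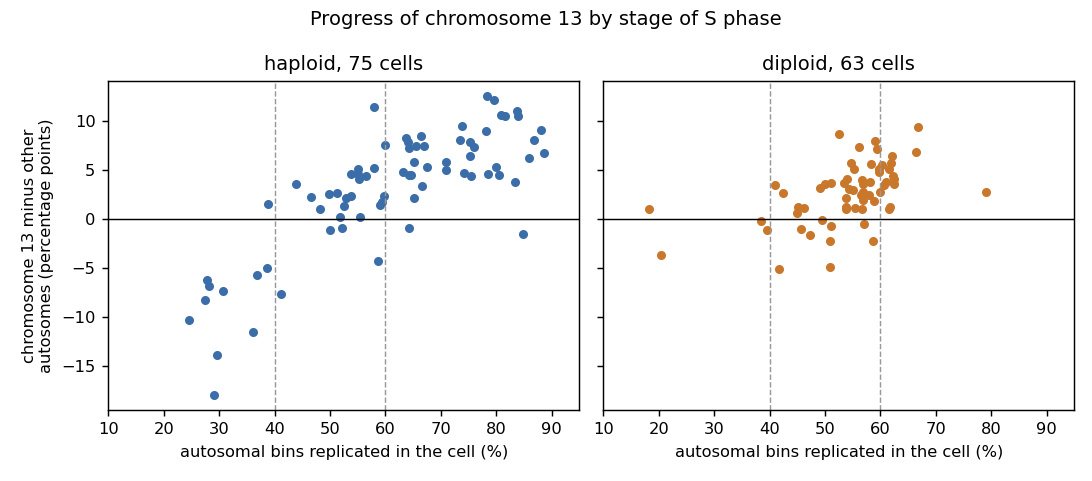
Percentage of chromosome 13 bins replicated minus that of the other autosomes (percentage points) against autosomal bins replicated in the cell (%), for 75 haploid and 63 diploid cells, a point per cell. Dashed lines mark 40% and 60%, and the points lie mostly below 0 on the left and above 0 on the right.

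The share of bins out of schedule, meaning bins whose state differed from a cell that replicated strictly in schedule order at its own progress, was highest on chromosome 13 in both lines. It was 14.3% ± 4.68 in haploid cells, beside 12.6% ± 2.59 on the other autosomes, and 15.4% ± 4.26 in diploid cells, beside 12.9% ± 3.53. The next highest autosomes were chromosome 18 at 14.3% in haploid cells and chromosome 10 at 14.3% in diploid cells, all within the SD over cells. In mid-S cells the chromosome 13 share was above that of the others in 24 of 25 haploid and 38 of 45 diploid cells. In the 39 haploid cells over 60% replicated it was 11.3% ± 3.93, beside 11.2% ± 2.01 on the others, a gap far within the SD. The 14 diploid cells over 60% had 14.1% ± 3.89 beside 12.6% ± 2.58. Pairs of cells within 1 percentage point of progress differed at 18.8% of chromosome 13 bins in haploid and 20.7% in diploid cells, also highest of the 19.

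Chromosome 13 had few bins at the ends of the schedule. Bins at 0 to 2 h made up 12.4% and bins at 8 to 10 h 11.03%, beside 20.4% and 20.4% on the other autosomes, and 27.3% lay at 4 to 6 h beside 19.6%. Bins at 4 to 6 h were out of schedule in 16.98% of haploid and 27.4% of diploid values on chromosome 13, and in 18.995% and 28.3% on the other autosomes. With every autosome weighted to the same distribution over scheduled hours, chromosome 13 had 13.1% out of schedule in haploid cells, rank 8, and 12.7% in diploid cells, rank 13, among 11.6% to 13.7% and 11.98% to 13.8% on the others. Under the same weights its progress differed from that of the other autosomes by 0.218 ± 4.34 percentage points in haploid and 0.318 ± 2.09 in diploid cells. T_width, the time over which the fitted percentage of replicated bins goes from 25% to 75%, was 1.99 h on chromosome 13, rank 11, between 1.83 h and 2.15 h on the others. Changes of state lay within 250 kb of 49.5% ± 10.7 of its early to late crossings in mid-S cells (SD, n = 70), beside 48.4% to 62.3% on the others.

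**Figure D4:**
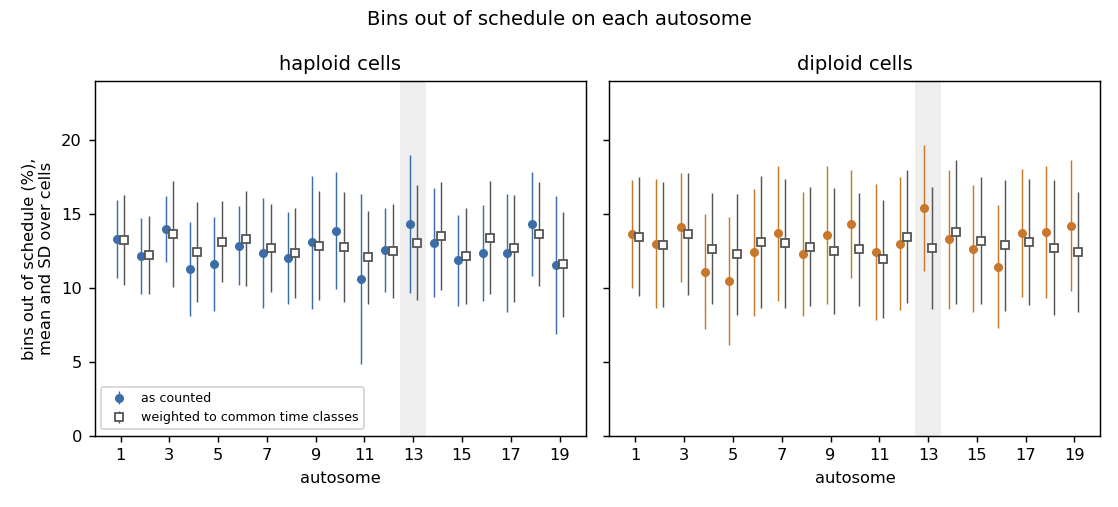
Bins out of schedule (%, mean and SD over cells) on each of 19 autosomes in haploid and diploid cells, as counted (filled circles) and weighted to the same distribution of scheduled hours (open squares). Chromosome 13, shaded, has the highest filled circle in both lines, and its open squares of 13.1% and 12.7% lie among the others.

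The lines were compared bin by bin, as the haploid minus diploid smoothed score with progress as a covariate. Mean profiles correlated over chromosome 13 bins at r = 0.954, rank 17, between 0.947 and 0.972 on the others. No bin of chromosome 13 was higher in the haploid line by at least 0.5 in score, beside 0.273% of all autosomal bins. In the diploid line 12 bins (0.556%) were higher by that size, beside 1.09%. They were a single bin at chr13:56700001-56750000 over Smad5, a transducer of BMP signals, and 11 bins at chr13:56850001-57400000 over the 5′ part of Trpc7 and the sequence upstream of it, within the largest early domain. In mid-S cells alone 25 bins passed the limit, and 5 of these were higher in the haploid line. The values just inside and outside the limit were 0.508 and 0.499.

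At chr13:56850001-57400000 the mean difference was -0.573 with an extreme of -0.635. The haploid score ran from -1.14 through a median of 0.0314 to 1.14, and the diploid score from -0.685 through a median of 0.409 to 1.46, so the lines overlapped. In mid-S cells 24.7% ± 38.97 of these bins were replicated in the 25 haploid cells and 90.3% ± 24.01 in the 45 diploid ones (SD over cells). Neighbouring genes had gaps in the same direction, with Tgfbi (a matrix protein induced by TGF-beta) replicated in 40% of haploid and 98.9% of diploid mid-S cells, and Spock1 over 48.7% and 80.6%. The opposite direction was largest among matrix genes at Itga2, a collagen receptor subunit, with a score difference of 0.47, and its bins were replicated at 50.7% in haploid and 21.1% in diploid mid-S cells. Only F121-9 carries a Castaneus homolog, and ploidy, genotype and line cannot be told apart here.

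**Figure D5:**
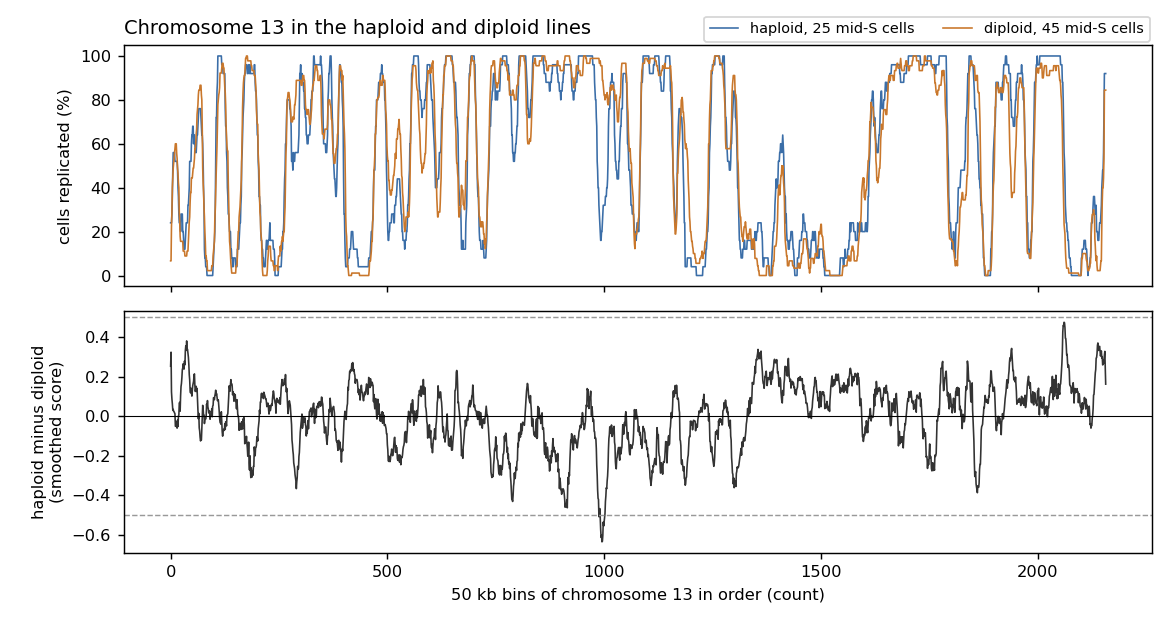
Percentage of mid-S cells replicated (top, 25 haploid and 45 diploid cells) and haploid minus diploid smoothed score with progress as a linear covariate over all cells (bottom) for each 50 kb bin of chromosome 13 in order. Dashed lines mark differences of 0.5, which are passed downward at 2 nearby places and nowhere upward.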

How the data were processed

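Per the study's methods, the authors aligned reads to mm10 with Bowtie2, counted them in 50 kb windows, divided by G1 and G2 controls, set aneuploid chromosomes to the control mean, scaled each cell and smoothed by median. The deposited smoothed score is therefore relative within a cell. The deposited binarized states (0 or 1) came from segmentation of that score by the authors. Homologs received different states only where parsed reads passed thresholds that lay slightly nearer 0 for 129 than for Castaneus, so most segments share a state by default. Values were read with Python 3.11.15, numpy 2.4.6, pandas 2.3.3 and scipy 1.17.1. Columns were matched to cells by plate well, and 24 columns of 8 diploid cells that matched no labelled sample were not used. Labelled cells without matched values (11 haploid and 33 diploid from S phase, 6 haploid from G1) were not analysed here. The schedule left out the cell itself. T_width came from a sigmoid by non-linear least squares over 0.1 h intervals with at least 100 values. Scripts were tested on simulated data. Genes were named from functional lists, the 5 earliest and 5 latest domains of at least 1 Mb, the longest asynchronous segments, the bins asynchronous in most cells and the line-difference regions, and in regions of more than 8 genes those of the lists and the longest. Irx1, Macroh2a1 and the other genes named beyond this rule were chosen after their values were seen. Members and lists were chosen with earlier results of these data known. The authors discarded cells and homolog segments below minimum read numbers, but the depth of each cell and segment is not in the tables used, so no counting interval is given. Values of a few genes are not reported here.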

Additional observations from a re-analysis of the deposited data

How the results depend on the processing

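No paired analysis was possible because a plate position serves only to name a cell and pairs none across the lines. Of 49 recomputed values of the main results, 43 kept their direction and moved by less than the SD over cells or by less than 1.5 times. For progress and homolog shares that SD is above the value, so the values could still move far. The lead of chromosome 13 fell from 2.97 to 1.35 percentage points in haploid and from 2.63 to 0.479 in diploid cells with a score above 0 as replicated, and to 0.218 and 0.318 when weighted to the same scheduled hours. The asynchronous share went from 1.05% to 0.505% without F11, C12 and H6, and the homolog difference from -0.152 to -0.0411 without F11 and to -0.271 in mid-S cells. The homolog difference reversed, to 0.0418 percentage points without F11 and C12 and to 0.0958 without F11, C12 and H6. The count of 12 bins with a line difference became 25 in mid-S cells only, 36 at a limit of 0.4 and 20 without haploid rows A and G, of which 5, 6 and 4 were higher in the haploid line, against 0 in the report's setting. The chr13:56850001-57400000 region kept its sign in every setting, between -0.573 and -0.843 in score and at -45.3 percentage points in states. It was defined by its difference in the same cells, so the kept sign was largely set in advance and is no independent support. Within 100 kb in place of 250 kb, 26.3% of crossings had a change of state, as a narrower window must give fewer. The cause of the other changes was not tested. Unknown depth limits what short segments and single bins can show.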
